A study of Mus musculus with 5 samples.

Results

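Long intergenic non-coding RNA (lincRNA) genes were taken from lists of genes with DamID peaks of the transcription factors SOX7, FLI1 and ERG in mouse endothelial precursor cells. A gene belonged to the set where at least 1 of the 3 lists gave it the biotype lincRNA, and genes were matched between lists by Ensembl identifier. This gave 780 lincRNA genes of 12507 listed genes, of which 9776 were protein-coding. The cells came from embryonic stem cells: FLK1+ cells of day 3 embryoid bodies were kept for 1 day in blast culture, and cKIT+ TIE2+ cells were then sorted. The groups were SOX7-Dam in the line iSox7::Dam, FLI1-Dam in the line IFli1::Dam and ERG-Dam in the line iErg::Dam, with 1 library each. Their references were Dam alone in the line iDam, as 1 library for SOX7 and 1 for FLI1 and ERG together, and no peak list of these controls was used here. All lines derive from Ainv18, and factor and line cannot be told apart. The files hold no expression values, so the labelled cell type was not checked against its markers, and a listed lincRNA gene need not be transcribed in these cells.

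In DamID a factor carries the bacterial methylase Dam, which leaves a lasting methyl mark on adenine at GATC sites around the places it visits. SOX7 is a high-mobility-group factor of blood and vessel precursors, while FLI1 and ERG are closely related ETS factors of endothelial and blood cells. LincRNA genes lie between protein-coding genes and are often transcribed from their own promoters or from divergent promoters next to a coding gene. A few, such as Malat1 or Meg3, are well studied, but most have only a clone or model name: 732 of the 780 here carried a symbol of the Gm or Rik kind.

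Promoter windows are shown for 5 lincRNA genes of all 3 factors with high read densities, and for Gm15545 and Prmt1, a lincRNA and a coding gene that face each other and share peaks. They were chosen after their values were seen. Each runs from 250 bases before to 50 bases after a transcript start in RefSeq on GRCm38.p6. They are chr17:9167973-9168272 on the minus strand for 6530411M01Rik, chr16:42875538-42875837 on the minus strand for 4932412D23Rik and chr13:23430968-23431267 on the minus strand for C230035I16Rik. The others are chr10:12923078-12923377 on the minus strand for B230208H11Rik, chr1:155083215-155083514 on the minus strand for Gm9530, chr7:44986650-44986949 on the plus strand for Gm15545 and chr7:44986371-44986670 on the minus strand for Prmt1. The peaks are on another build, mm9, so whether they cover these windows was not determined. Capitals mark GATC, the ETS cores CCGGAA and AGGAAG and the SOX cores ACAATG and ACAAAG, read on both strands.
6530411M01Rik: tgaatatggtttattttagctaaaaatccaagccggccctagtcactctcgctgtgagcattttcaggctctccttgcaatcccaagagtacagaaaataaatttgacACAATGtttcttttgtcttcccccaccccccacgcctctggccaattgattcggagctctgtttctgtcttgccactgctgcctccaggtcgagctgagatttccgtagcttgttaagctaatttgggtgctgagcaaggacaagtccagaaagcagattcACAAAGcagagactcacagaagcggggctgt
4932412D23Rik: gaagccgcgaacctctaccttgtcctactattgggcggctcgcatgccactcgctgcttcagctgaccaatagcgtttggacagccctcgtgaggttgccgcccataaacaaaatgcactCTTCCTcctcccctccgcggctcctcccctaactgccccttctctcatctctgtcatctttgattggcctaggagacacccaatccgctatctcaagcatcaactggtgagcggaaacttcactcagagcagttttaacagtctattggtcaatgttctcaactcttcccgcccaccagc
C230035I16Rik: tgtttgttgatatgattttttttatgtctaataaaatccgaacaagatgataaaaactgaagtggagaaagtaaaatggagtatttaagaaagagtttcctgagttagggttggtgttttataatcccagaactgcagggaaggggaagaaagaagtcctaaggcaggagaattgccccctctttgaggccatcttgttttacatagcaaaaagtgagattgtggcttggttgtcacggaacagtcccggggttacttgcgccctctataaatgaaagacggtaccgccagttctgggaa
B230208H11Rik: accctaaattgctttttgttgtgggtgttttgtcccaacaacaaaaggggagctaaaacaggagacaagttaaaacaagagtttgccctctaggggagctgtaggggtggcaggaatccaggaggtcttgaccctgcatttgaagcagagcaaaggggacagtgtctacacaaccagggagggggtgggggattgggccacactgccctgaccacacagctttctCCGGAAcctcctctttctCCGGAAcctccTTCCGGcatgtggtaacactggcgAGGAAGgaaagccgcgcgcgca
Gm9530: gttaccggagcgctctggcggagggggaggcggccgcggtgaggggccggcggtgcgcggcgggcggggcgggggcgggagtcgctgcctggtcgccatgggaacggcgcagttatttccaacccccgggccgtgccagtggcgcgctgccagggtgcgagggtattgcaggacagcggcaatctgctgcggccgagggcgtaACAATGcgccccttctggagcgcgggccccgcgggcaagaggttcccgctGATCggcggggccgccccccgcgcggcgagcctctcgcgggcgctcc
Gm15545: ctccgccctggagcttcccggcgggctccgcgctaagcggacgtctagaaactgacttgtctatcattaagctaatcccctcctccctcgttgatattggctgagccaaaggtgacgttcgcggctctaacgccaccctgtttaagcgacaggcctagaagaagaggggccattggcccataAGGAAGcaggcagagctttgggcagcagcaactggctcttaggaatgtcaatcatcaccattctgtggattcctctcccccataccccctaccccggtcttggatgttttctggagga
Prmt1: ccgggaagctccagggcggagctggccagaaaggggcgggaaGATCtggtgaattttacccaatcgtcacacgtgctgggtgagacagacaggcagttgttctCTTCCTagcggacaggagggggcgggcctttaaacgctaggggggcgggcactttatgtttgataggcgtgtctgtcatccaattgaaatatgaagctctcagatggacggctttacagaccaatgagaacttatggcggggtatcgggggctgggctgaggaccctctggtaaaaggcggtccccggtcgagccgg

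The window of B230208H11Rik held 3 copies of CCGGAA and 1 of AGGAAG, that of 6530411M01Rik held 1 copy each of ACAATG and ACAAAG, and that of C230035I16Rik held none of the 5 words. Among all 32851 windows of the RefSeq table, 48.0% held GATC, 14.9% held CCGGAA, 35.4% held AGGAAG, 12.6% held ACAATG and 18.7% held ACAAAG. No 2 matches overlap in the windows shown, and a match is a description only. RefSeq windows matched 374 of the 780 lincRNA genes (47.9%). Whether these stand for the unmatched genes is not known, so no comparison of motif shares was made.

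FLI1-Dam listed the most lincRNA genes, and they made up a small part of each list. The biotype lincRNA was carried by 281 of 6530 genes of the SOX7 list (4.30%, 95% Clopper-Pearson interval 3.82 to 4.82%), 674 of 10246 of the FLI1 list (6.58%, 6.11 to 7.08%) and 100 of 1579 of the ERG list (6.33%, 5.18 to 7.65%). Their peaks numbered 408 of 10029, 1057 of 16834 and 101 of 1588 unique peaks. The lists were annotated differently, and this touches the SOX7 share: 91 further lincRNA genes of the FLI1 or ERG list were processed_transcript in the SOX7 list. With a lincRNA call in any list enough, the lincRNA genes were 372 of the SOX7 list (5.70%, 5.15 to 6.29%), 685 of the FLI1 list (6.69%, 6.21 to 7.19%) and 103 of the ERG list (6.52%, 5.36 to 7.86%), with overlapping intervals. Of 335 SOX7 genes with that biotype 222 were in another list, where 91 (41.0%) were lincRNA and 92 antisense. The other 113 were listed by SOX7 alone, and any lincRNA genes among them are missing from the 780. With 1 library per factor there was no replicate check and no test, and the intervals cover counting error only, since amplified reads carry no molecular identifiers.

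By number of factors, lincRNA genes were split much as coding genes were. By combination of factors, FLI1 alone was commoner and SOX7 alone rarer for lincRNA genes. Of the 780, 463 (59.4%) were listed by 1 factor, 254 (32.6%) by 2 and 63 (8.08%, 6.26 to 10.2%) by all 3, where 7% of all listed genes were listed by all 3. Of protein-coding genes, 57.5% were listed by 1 factor, 34.8% by 2 and 7.71% by all 3. A gene in more lists had more chances to be called lincRNA. With lincRNA required in every list that held the gene, 463, 169 and 46 genes of 1, 2 and 3 factors were left. This rule cannot remove a gene of 1 list, so it can only move the split towards 1 factor. Coding genes were not put through it. The likeness to coding genes is thus shown only with a call in any list being enough for either class. FLI1 alone was the commonest pattern, with 375 lincRNA genes (48.1%, 44.5 to 51.6%), against 41.3% of coding and 42.9% of all listed genes. SOX7 with FLI1 followed with 231 (29.6%), against 30.9% and 29.1%. SOX7 alone had 71 (9.10%, 7.18 to 11.3%), against 14.4% and 15.4%. ERG alone had 17 (2.18%), FLI1 with ERG 16 (2.05%) and SOX7 with ERG 7 (0.897%), against 1.86, 3.22 and 0.696% of coding genes. The number for SOX7 alone lacks any lincRNA genes among the 113 described above, and all shares of the 780 would change with them.

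**Figure D1:**
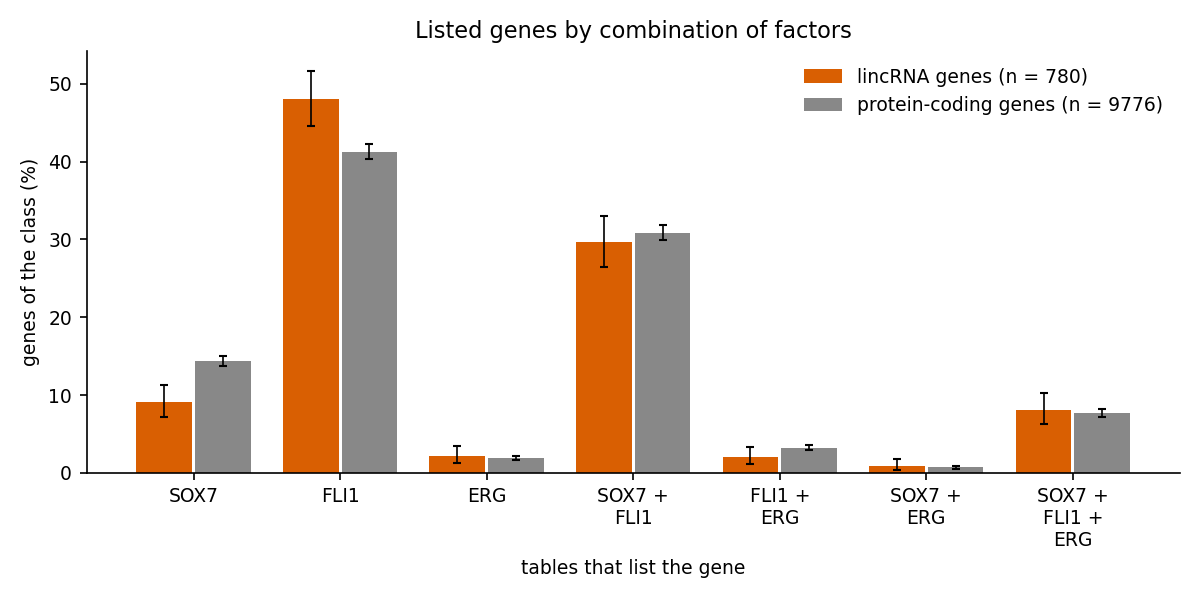
Share of genes (%, y axis) listed by each combination of factors (x axis), for 780 lincRNA genes (orange) and 9776 protein-coding genes (grey), with 95% Clopper-Pearson intervals. FLI1 alone is the tallest bar for both classes, and the bars for all 3 factors, at 8.08% and 7.71%, have overlapping intervals.

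The sharing of lincRNA genes between lists was close to that of all genes. Of the 281 SOX7 lincRNA genes, 205 (73.0%) were also in the FLI1 list, against 69.1% of all SOX7 genes, and 54 (19.2%, 14.8 to 24.3%) in the ERG list, against 14.8%. Of the 674 FLI1 lincRNA genes, 283 (42.0%) were in the SOX7 list, against 44% of all FLI1 genes, and 76 (11.3%) in the ERG list, against 12.2%. Of the 100 ERG lincRNA genes, 67 were in the SOX7 list, against 61.3% of all ERG genes, and 76 in the FLI1 list, against 78.8%. In each of these 6 cases the interval of the lincRNA share contained the share of all genes. FLI1 and ERG share their Dam-only library, so their lists are not independent of each other.

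Read density was compared as the percentile of a gene's reads per kb within its own list, because the deposited densities are neither scaled to depth nor divided by the control. The median lincRNA gene stood at percentile 56.3 of the SOX7 list (95% interval of the median 51.5 to 62.4), against 50.2 for coding genes. It stood at 53.8 of the FLI1 list (50.7 to 56.7), against 50.9, and at 56.2 of the ERG list (44.8 to 63.7), against 49.5. Without lincRNA genes that share a peak with a coding gene, the medians were 55.0, 50.8 and 55.7 for SOX7, FLI1 and ERG. The FLI1 median was then not above that of all coding genes. LincRNA genes among the densest 10% of a list numbered 39 in the SOX7 list (13.9%, 10.1 to 18.5%), 87 in the FLI1 list (12.9%, 10.5 to 15.7%) and 10 in the ERG list (10%, 4.90 to 17.6%), against 10% of all genes in each case. The SOX7 and FLI1 shares had intervals above 10%, and the ERG interval contained it. Ranked by read count in place of density, the median lincRNA gene stood at 51.6, 53.3 and 50.9 in the SOX7, FLI1 and ERG lists, against 52.0, 51.9 and 49.8 for coding genes, and by read count the SOX7 lincRNA median was not above that of coding genes. At the thin end lincRNA genes made up their even part, with 8.90% of the SOX7, 9.94% of the FLI1 and 9% of the ERG lincRNA genes among the least dense 10%.

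**Figure D2:**
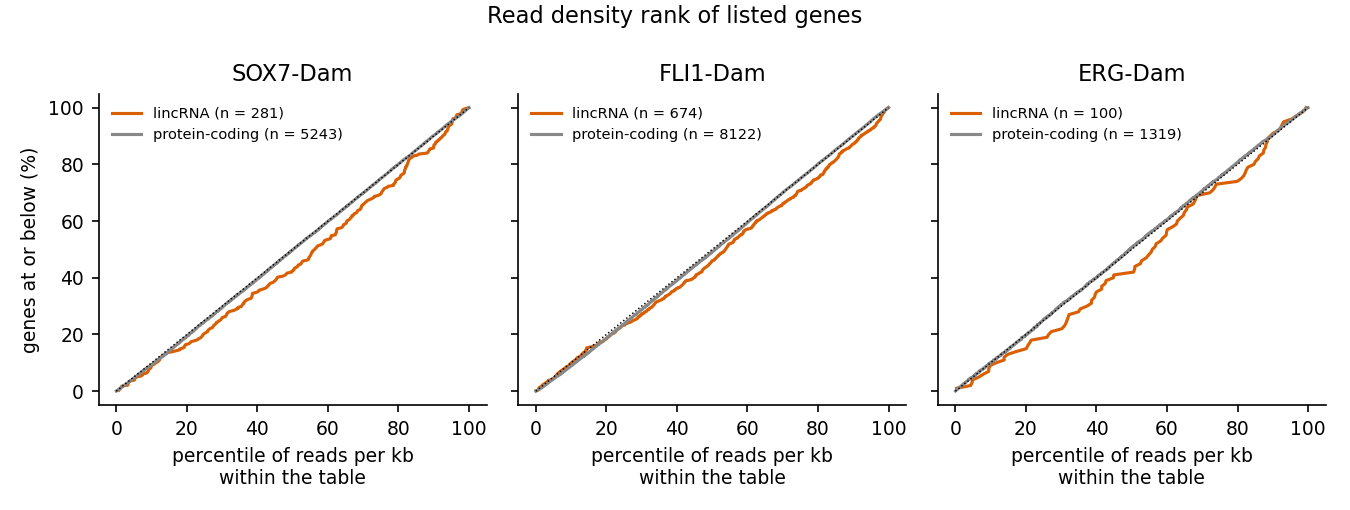
Cumulative share of genes (%, y axis) against the percentile of reads per kb within the list (x axis), for lincRNA genes (orange) and protein-coding genes (grey) in the SOX7, FLI1 and ERG lists, with the dotted diagonal for an even spread. The orange line runs below the grey one over most of the middle range, and the median lincRNA gene lies at 56.3, 53.8 and 56.2 in the 3 lists. In the ERG list, with the fewest lincRNA genes, the lines meet again in the upper range.

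Genes shared by more factors were denser. In the SOX7 list the median percentile of lincRNA genes was 38.5 for the 71 of SOX7 alone, 54.4 for the 238 of 2 factors and 64.4 for the 63 of all 3. The FLI1 list gave 47.7 for 375, 57.8 for 247 and 72.2 for 63 genes, and the ERG list 38.6 for 17, 52.5 for 23 and 62.7 for 63. Coding genes ran in the same order, with 45.9, 49.7 and 58.2 in the SOX7 list, 45.4, 53.9 and 66.1 in the FLI1 list and 37.2, 46.9 and 53.0 in the ERG list, so the order is not particular to lincRNA genes. The intervals of the medians for 1 and for 3 factors did not overlap in the SOX7 list (25.9 to 55.2 and 56.3 to 75.4) and the FLI1 list (42.7 to 52.1 and 58.9 to 84.5), and overlapped in the ERG list (14.9 to 56.6 and 55.5 to 73.9). The share of lincRNA genes with 2 or more peaks was 9.86, 31.1 and 38.1% for 1, 2 and 3 factors in the SOX7 list, 22.7, 48.2 and 46.0% in the FLI1 list and 0, 0 and 9.52% in the ERG list, and its part in the order of density was not tested.

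Peaks of SOX7 at lincRNA genes met FLI1 peaks more often than SOX7 peaks in general. With 1 bp as the least overlap, 186 of the 408 (45.6%, 40.7 to 50.6%) met a FLI1 peak, against 35.2% of all SOX7 peaks, and 38 (9.31%, 6.68 to 12.6%) met an ERG peak, against 5.13%. Of the 1057 FLI1 peaks, 251 (23.7%, 21.2 to 26.4%) met a SOX7 peak, against 20.9%, and 52 (4.92%, 3.70 to 6.40%) an ERG peak, against 4.63%. Of the 101 ERG peaks, 42 (41.6%, 31.9 to 51.8%) met a SOX7 peak, against 32.4%, and 53 (52.5%, 42.3 to 62.5%) a FLI1 peak, against 49.3%. These intervals treat peaks as independent. Some lincRNA genes held many peaks, up to 14 in the SOX7 list, so the intervals may be too narrow. The intervals of both SOX7 shares and of FLI1 with SOX7 excluded the share of all peaks, and the other 3 contained it. For SOX7 with FLI1 this held under all 5 alternatives tried. Without peaks also assigned to a coding gene, the lincRNA intervals contained the share of all peaks for SOX7 with ERG (5.09 to 11.2%) and for FLI1 with SOX7 (20.1 to 25.9%). The interval of FLI1 with SOX7 also contained it with centres within 500 bp, and both did in the narrower peaks. In the denser 50% of genes the interval of ERG with SOX7 lay above the share of all such peaks, at 44.1 to 70.0%, against 36.4%. LincRNA peaks were also wider, with medians of 1526, 1751 and 1001 bp for SOX7, FLI1 and ERG, against 1451, 1651 and 951 bp for all peaks. Among SOX7 peaks no wider than the median of the list, 35.3% of lincRNA peaks met a FLI1 peak (28.5 to 42.5%), against 27.1% of all, and for SOX7 with ERG the share was 5.79% (2.93 to 10.1%), against 3.58%. In the same narrow peaks, FLI1 met SOX7 in 16.3% of lincRNA peaks, against 15.3% of all, and ERG met SOX7 in 22.2%, against 23.9%.

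**Figure D3:**
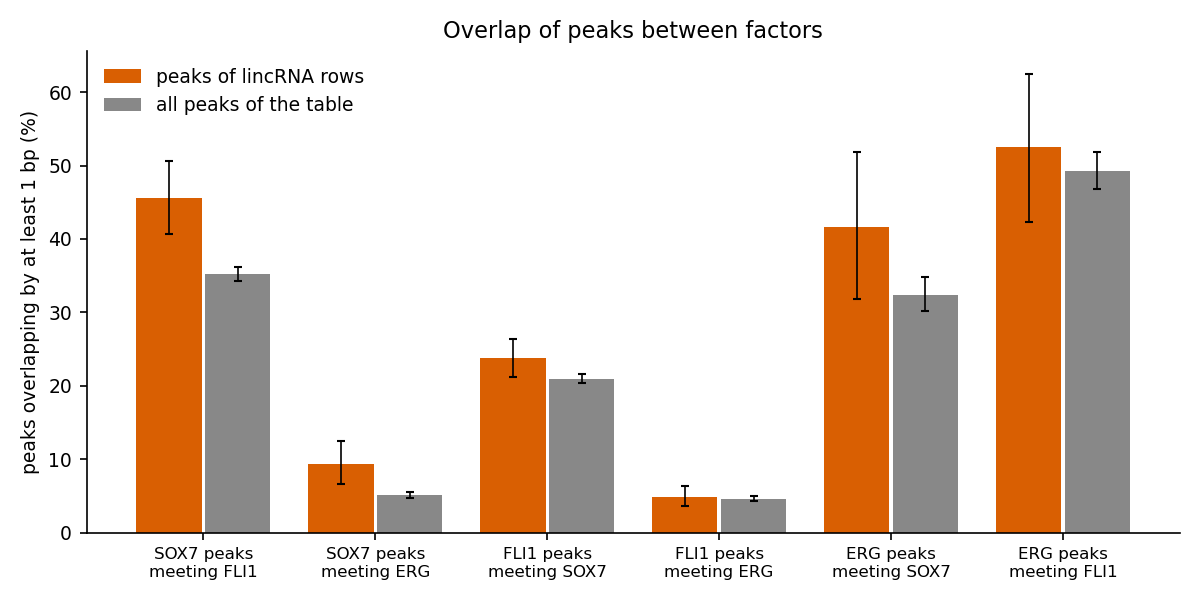
Share of peaks (%, y axis) that overlap a peak of a second factor by at least 1 bp, for each ordered pair of factors (x axis), for peaks of lincRNA rows (orange) and all peaks of the list (grey), with 95% Clopper-Pearson intervals. SOX7 peaks meeting FLI1 stand at 45.6% for lincRNA rows and 35.2% for all peaks, with intervals that do not overlap.

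A gene listed by 2 factors did not always have their peaks at the same place. Of 294 lincRNA genes listed for SOX7 and FLI1, 204 (69.4%, 63.8 to 74.6%) had overlapping peaks of both, against 64.2% of all genes of that pair. For SOX7 and ERG this held for 42 of 70 (60%, 47.6 to 71.5%), against 55.3%, and for FLI1 and ERG for 52 of 79 (65.8%, 54.3 to 76.1%), against 65.1%. Of 1410 merged regions with a peak of a lincRNA gene, 43 (3.05%, 2.22 to 4.09%) held a peak of every factor, against 1.71% of the 23972 merged regions in total. Of the 63 lincRNA genes of all 3 factors, 35 (55.6%, 42.5 to 68.1%) had such a region assigned to them by each factor, against 48.4% of all genes of all 3 factors and 46.3% of coding ones. In the others no single merged region held a peak assigned to the gene by each factor.

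Those 35 genes had 37 regions. In 34 of them the 3 peaks had bases in common, with a median of 999 bases and a highest value of 2929 over the 37, and the common stretch covered a median of 89.9% of the ERG peak. The ERG peak lay wholly inside the FLI1 peak in 17 regions, inside the SOX7 peak in 6 and inside both in 2. No coding gene was assigned to any peak of 25 regions, and at least 1 was in the other 12.

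**Figure D4:**
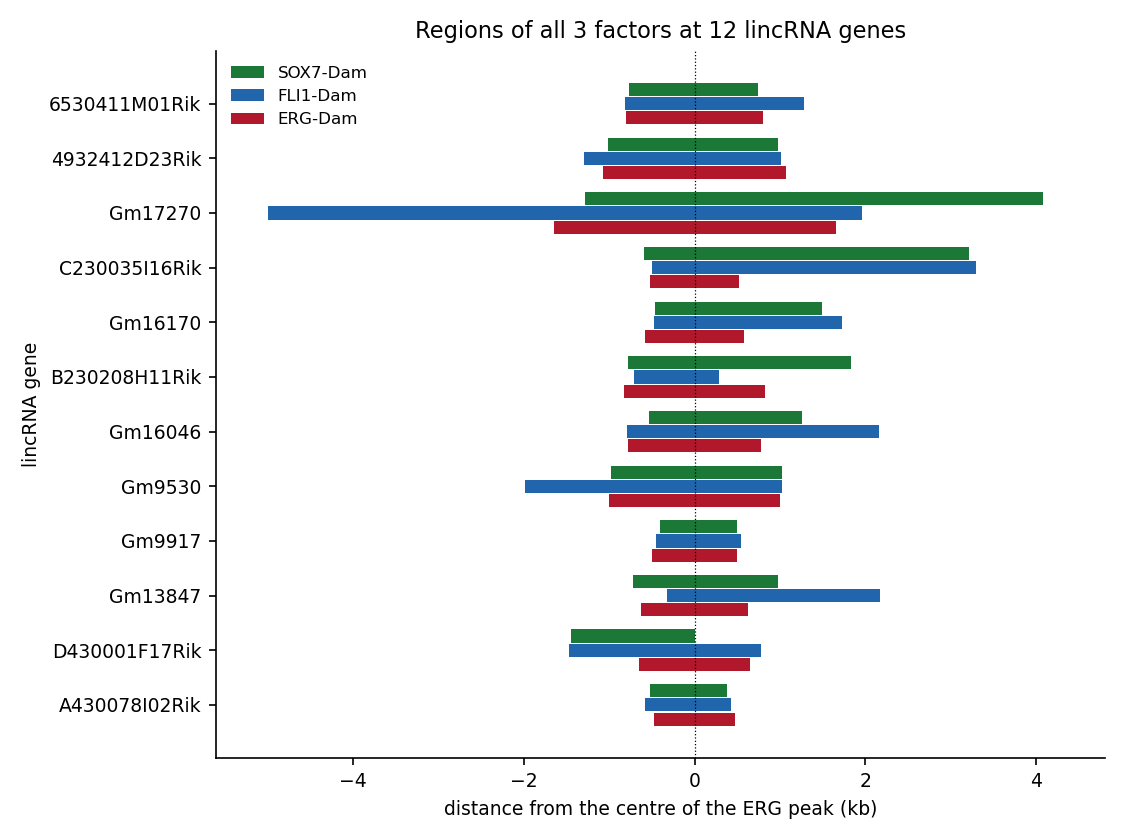
Extent of the SOX7 (green), FLI1 (blue) and ERG (red) peak in a region of all 3 factors at 12 lincRNA genes, as distance from the centre of the ERG peak in kb (x axis), one gene per row. These are the 12 genes with the highest mean percentile that have such a region, with 1 region shown per gene. The peaks of 6530411M01Rik and 4932412D23Rik nearly coincide, while the FLI1 peak of Gm17270, at 6951 bp, is the widest shown.

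6530411M01Rik (ENSMUSG00000073467), on chr17, and 4932412D23Rik (ENSMUSG00000075070), on chr16, were the lincRNA genes of all 3 factors with the highest mean percentiles, 97.4 and 97.2. Their promoter windows are shown above, and neither is assigned a function here. For 6530411M01Rik the lists gave 168 SOX7 reads (112 per kb, exact Poisson interval 95.6 to 130.2), 627 FLI1 reads (298 per kb, 276 to 323) and 398 ERG reads (249 per kb, 225 to 274). The densities stood at percentiles 93.8, 99.3 and 99.0 and were 2.29, 4.33 and 7.86 times the median gene of their lists. The peaks were chr17:9360841-9362341 for SOX7, chr17:9360786-9362886 for FLI1 and chr17:9360804-9362404 for ERG on mm9, with no other gene assigned. Positions relative to exons and introns were not determined, for want of mm9 gene models.

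For 4932412D23Rik the lists gave 244 SOX7 reads (122 per kb, 107 to 138), 1285 FLI1 reads (558 per kb, 528 to 590) and 311 ERG reads (145 per kb, 129 to 162), at percentiles 95.2, 99.9 and 96.5. The FLI1 density was the highest of any lincRNA gene in that list, or 8.11 times that of the median FLI1 gene. Its peaks, chr16:42780748-42782748, chr16:42780474-42782774 and chr16:42780692-42782842 for SOX7, FLI1 and ERG, had 2001 bases in common. The nearest coding gene in RefSeq was Zbtb20, a zinc-finger repressor gene, which all 3 lists also hold.

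Next came Gm17270, described below with Zfp608, and then C230035I16Rik on chr13, with a mean percentile of 96.2 and with a SOX7 and a FLI1 peak of 3801 bp each and an ERG peak of 1051 bp at one end of them. The 3 densities were 116, 179 and 170 reads per kb for SOX7, FLI1 and ERG, at percentiles 94.5, 96.2 and 97.9. It was processed_transcript in the SOX7 list and lincRNA in the other 2. After Gm16170 came B230208H11Rik, whose nearest coding gene was the syntaxin gene Stx11, with 156, 264 and 78.7 reads per kb at percentiles 98.1, 98.9 and 87.4. Gm9530 had 2 regions of all 3 factors and a further place of SOX7 and FLI1, with 113, 276 and 72.9 reads per kb at percentiles 94.1, 99.0 and 84.6. Its nearest coding gene was Ier5, an immediate early response gene, listed by SOX7 and FLI1.

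In all, 6 of the 63 lincRNA genes of all 3 factors (9.52%, 3.58 to 19.6%) stood at percentile 90 or above in each list, against 3.65% of all 876 genes of all 3 factors. At 50 or above in each stood 32 (50.8%, 37.9 to 63.6%), against 33.8%, and below 50 in each 8 (12.7%, 5.65 to 23.5%), against 13%. The 6 were 6530411M01Rik, 4932412D23Rik, C230035I16Rik, Gm16170, Gm16046 and Gm17270. Several others ranked high for the ETS factors and lower for SOX7. Gm14261 stood at 58.9 for SOX7, 94.1 for FLI1 and 90.1 for ERG, Gm15545 at 62.4, 98.8 and 81.8, and 1110002J07Rik at 66.8, 97.9 and 88.4. Gm13847, whose nearest coding gene was Podxl, the sialomucin podocalyxin of vessel and kidney cells, ran the other way round between SOX7 and FLI1, at 84.5, 75.9 and 87.9.

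**Figure D5:**
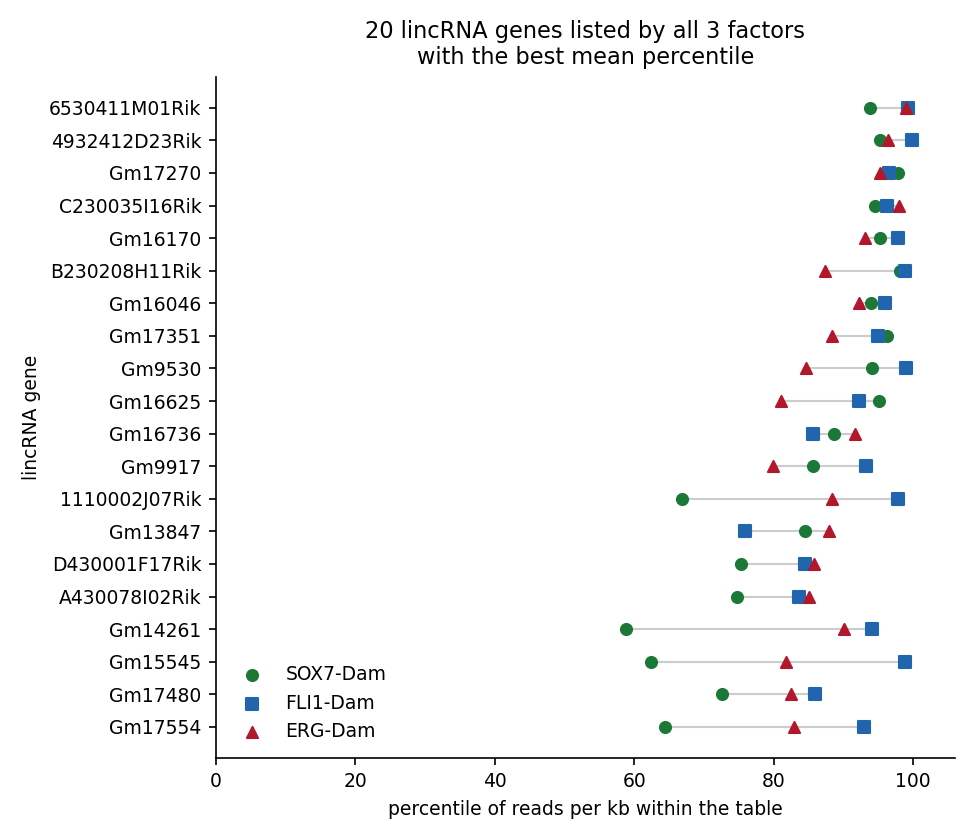
Percentile of reads per kb within the SOX7 (green circle), FLI1 (blue square) and ERG (red triangle) list (x axis) for the 20 lincRNA genes of all 3 factors with the highest mean percentile, one gene per row. 6530411M01Rik leads with a mean of 97.4, and the SOX7 point of Gm14261, at 58.9, is the lowest shown.

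The densest lincRNA gene of the SOX7 list and that of the ERG list were each missing from 1 other list. For SOX7 it was 5730422E09Rik (Mm2pr in RefSeq), with 494 reads in 1 peak, chr5:149994155-149995405, a density of 395 reads per kb (361 to 431), or 8.09 times that of the median SOX7 gene. FLI1 had only 71.9 reads per kb there, at percentile 53.7, in a peak that lay elsewhere, chr5:149910371-149911371, and ERG did not list it. For ERG it was 2610206C17Rik, with 308 reads in 1 peak and a density of 385 per kb (343 to 430), or 12.2 times that of the median ERG gene. FLI1 listed 2610206C17Rik at 144 reads per kb, percentile 92.4, with an overlapping peak, and SOX7 did not list it. In the FLI1 list Gm17690 and Gm17692 came next after 4932412D23Rik with 374 and 360 reads per kb, and both were also among the 5 densest for SOX7, with 159 and 192 reads per kb. Gm17690 shared its only peak in either list with Sf3b4, a splicing factor gene, and with Mtmr11. Gm17692 shared all its peaks in both lists with Gm2792 and Tmem181b-ps, which the lists call protein-coding.

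Of the 39 in the densest 10% of SOX7, 35 (89.7%, 75.8 to 97.1%) were listed by FLI1, against 72% of all genes of that kind, and 19 (48.7%, 32.4 to 65.2%) were in the densest 10% of FLI1, against 27%. ERG listed 11 of the 39 (28.2%), against 19.4%, 5 of them (12.8%, 4.30 to 27.4%) in its densest 10%, against 7.04%. Of the 87 of FLI1, 50 (57.5%, 46.4 to 68.0%) were listed by SOX7, against 56.2%, and 26 (29.9%, 20.5 to 40.6%) were in its densest 10%, against 17.2%. ERG listed 22 of the 87 (25.3%), against 23.4%, 8 of them (9.20%, 4.05 to 17.3%) in its densest 10%, against 6.53%. Of the 10 of ERG, 8 were listed by SOX7, against 70.9%, and 6 (60%, 26.2 to 87.8%) were in its densest 10%, against 29.1%. FLI1 listed 10 of these 10, against 86.1%, and 8 (80%, 44.4 to 97.5%) were in its densest 10%, against 42.4%.

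By read number the order changed, since reads add up over the peaks of a gene. Gm16869 had 4943 FLI1 reads in 4 peaks between bases 2999951 and 3036651 of chr9, and no other list held it. Its peaks were also assigned to 11 coding genes, all with Gm symbols, and its 167 reads per kb stood at percentile 95.2. This 1 place thus gives 11 of the pairs of lincRNA and coding genes counted below. 2610307P16Rik, whose nearest coding gene was Sox4, a SOX family factor, had the most peaks in the SOX7 list, with 1406 reads in 14 peaks, and 1938 reads in 12 peaks in the FLI1 list. Its densities were ordinary, 53.2 and 87.6 reads per kb at percentiles 56.6 and 69.7, and 6 of the 14 SOX7 peaks met a FLI1 peak. Pvt1, a long gene beside Myc, had 12 SOX7 peaks and 13 FLI1 peaks, 7 of each overlapping, at percentiles 64.2 and 55.3. ERG listed neither. Gm14005, now Morrbid, which in mouse myeloid cells restrains its neighbour Bcl2l11, had 4 SOX7, 7 FLI1 and 1 ERG peak at percentiles 31.3, 49.8 and 26.4. In the ERG list 95% of lincRNA genes had a single peak, against 74.7% in the SOX7 list and 65.9% in the FLI1 list.

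About 1 in 5 lincRNA peaks was also assigned to a coding gene, with identical coordinates in both rows. This held for 86 SOX7 peaks (21.1%, 17.2 to 25.4%), 201 FLI1 peaks (19%, 16.7 to 21.5%) and 24 ERG peaks (23.8%, 15.9 to 33.3%). With any second gene counted, the lincRNA shares were 24.0, 22.7 and 29.7% for SOX7, FLI1 and ERG, against 4.9, 6.28 and 8.12% of all peaks. A shared peak counts for both of its classes, so a small class has a higher share than a large one from the same shared peaks. Other small classes spread widely: in the FLI1 list the share with any second gene was 48.6% for antisense and 37.9% for processed_transcript peaks, but 7.75% for pseudogene and 7.44% for snRNA peaks. LincRNA genes with a peak shared with a coding gene had higher median percentiles than those without, 61.7 against 55.0 for SOX7, 63.9 against 50.8 for FLI1 and 57.7 against 55.7 for ERG. The intervals of these medians overlapped in the SOX7, FLI1 and ERG lists.

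The shared peaks joined 210 lincRNA genes and 244 coding genes in 246 pairs, of which 190 were seen with 1 factor, 46 with 2 and 10 with all 3. A pair counted for a factor only where that factor's list called the gene lincRNA, so the split also depends on the annotation. Nespas and Gnas count with 1 factor although they shared a SOX7 and a FLI1 peak, since the FLI1 list calls Nespas antisense. Gas5, non_coding in the FLI1 list, shared its FLI1 peak with Zbtb37 and is not among the pairs. Sall4, a zinc-finger factor of pluripotent cells, shared its peak with Gm14261 in all 3 lists, at chr2:168592799-168594899 for SOX7, chr2:168592798-168594398 for FLI1 and chr2:168592738-168593788 for ERG. Gm14261 had 54.7, 156 and 88.5 reads per kb there, and Sall4, which had a density of its own from other peaks in the SOX7 and FLI1 lists, stood at percentiles 84.9, 98.7 and 90.1. Zfp608, a zinc-finger gene, shared peaks with Gm17270, the densest of these pairs, where Gm17270 stood at percentiles 97.8, 96.5 and 95.3. In the SOX7 list 1 of its peaks was also assigned to a second lincRNA gene, Gm4221.

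By this count the other pairs of all 3 factors were Gm16046 with Tcte2, Gm17480 with 0610011F06Rik, Gm12592 with Pik3ip1, BC046401 with Zmynd8, B430010I23Rik with Mtus1, Gm16952 with Dlgap1, Gm16867 with Loxl2 and Gm4651 with Mical3. Pik3ip1 encodes an inhibitor of PI3 kinase and Loxl2 a lysyl oxidase that crosslinks collagen. The lincRNA genes of these pairs differed widely in density. Gm16046 stood at percentiles 94.0, 96.1 and 92.2 for SOX7, FLI1 and ERG, and Gm4651 at 34.5, 18.3 and 20.1.

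Some pairs of SOX7 and FLI1 involved genes of vessels or of the SOX family. Gm17473 and Angpt1, the ligand of the receptor TIE2, shared a SOX7 peak, chr15:42505729-42508579, and a FLI1 peak, chr15:42506912-42509262, in which Gm17473 had 49.1 and 70.2 reads per kb at percentiles 50.3 and 51.6. Gm17419 and Sox4 shared peaks of both factors, with Gm17419 at percentiles 73.0 and 68.3. Gm17591 shared its only peak with Zfp36l1, which encodes an RNA-binding protein that promotes mRNA decay, at 116 reads per kb for SOX7 and 305 for FLI1, percentiles 94.4 and 99.4. Gm15441 shared its only peak with Txnip, an inhibitor of thioredoxin, at 92.7 and 162 reads per kb, percentiles 88.8 and 94.7. These pairs were chosen after their values were seen.

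Some of these pairs have promoters that face each other. Among the 374 lincRNA genes with a RefSeq window, 76 had one that overlapped the window of a coding gene on the opposite strand. In 46 of the 76 (60.5%) at least 1 list held both genes, and in 21 (27.6%) at least 1 list gave both genes the same peak. For listed coding genes that face another coding gene these shares were 51.7% and 32.2% of 572 pairs. With windows for 47.9% of the lincRNA genes, nothing is read from the differences. Gm15545 and Prmt1, which encodes the main arginine methyltransferase of mammalian cells, are such a pair. Their windows, shown above, overlap, and both genes had the same SOX7 peak, chr7:52240798-52243448, and the same FLI1 peak, chr7:52240803-52243553, with 57.3 and 259 reads per kb. ERG had a peak inside that FLI1 peak, chr7:52242145-52243495, assigned to Gm15545 alone. It overlapped the SOX7 peak but reached past its end. A930024E05Rik and Kdm2b, a histone demethylase gene, likewise shared 1 peak in the SOX7 and in the FLI1 list. Foxl2os and Foxl2, a forkhead factor gene, were both in all 3 lists without a common peak, and Foxl2os stood at percentiles 42.7, 97.8 and 21.5 for SOX7, FLI1 and ERG.

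A few lincRNA peaks lay at small RNA genes. In the FLI1 list 3 peaks of rows called lincRNA there were shared with a miRNA row. These were Mir205 with 4631405K08Rik (its RefSeq name is Mir205hg), Mir322 with C430049B03Rik and Mir202 with Gm16201. Their mature RNAs in RefSeq are shown to identify the loci, with the seed, bases 2 to 8, in capitals. No 2 of these seeds are the same.
mmu-miR-205-5p: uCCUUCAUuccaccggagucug
mmu-miR-205-3p: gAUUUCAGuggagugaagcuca
mmu-miR-322-5p: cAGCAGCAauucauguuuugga
mmu-miR-322-3p: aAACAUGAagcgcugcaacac
mmu-miR-202-5p: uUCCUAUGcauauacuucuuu
mmu-miR-202-3p: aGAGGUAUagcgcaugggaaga

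The 3 host genes stood at percentiles 25.2, 41.7 and 86.9 of the FLI1 list for 4631405K08Rik, C430049B03Rik and Gm16201. SOX7 listed the first 2, at percentiles 47.8 and 19.1, with no miRNA row sharing the peak. Peaks of rows called lincRNA that were shared with a snoRNA row numbered 5 in the SOX7 list, 6 in the FLI1 list and 1 in the ERG list. They belonged mainly to snoRNA host genes, whose introns carry small nucleolar RNAs that guide rRNA modification. Gas5 had 131 SOX7 reads per kb (110 to 154), percentile 96.4, but 45.9 FLI1 reads per kb, percentile 17.4. These peaks lay at different places, chr1:162965958-162967058 for SOX7, shared with snoRNA rows, and chr1:162963257-162964607 for FLI1, shared with Zbtb37. Snhg12 stood at 69.5 for SOX7 and 95.8 for FLI1, and Snhg5 at 85.4 and 62.1. Gm11974, now Snhg15, was listed by all 3 at percentiles 83.9, 48.1 and 73.0, with 1 region of all 3 factors.

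A list of 54 known long non-coding RNA names gives the well-studied genes. Of its entries, 25 were among the 780, 4 were listed with another biotype in each list that held them (Neat1, Hotairm1, Mir22hg and Snhg3) and 25 matched no listed gene, among them H19 and Xist. Cyrano, counted among these 25, is another name of Oip5os1, which is listed. Upperhand and Hand2os1, both also counted among these 25, are names of the same gene. Of the 25 members, all 3 factors listed Snhg15 and Ftx, a gene of the X inactivation centre. Ftx had low densities, 41.3, 61.1 and 22.7 reads per kb for SOX7, FLI1 and ERG, at percentiles 36.4, 38.7 and 30.1. A FLI1 peak of Ftx, chrX:100767540-100768790, was also assigned to Mir421 and Mir374. It is not in the miRNA count above, since the FLI1 list calls Ftx non_coding.

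Malat1, an abundant nuclear RNA, had 255 SOX7 reads (100 per kb, 88.1 to 113.0) at percentile 91.3 and 532 FLI1 reads (95.8 per kb, 87.8 to 104.3) at 75.8, with a peak of each overlapping. Sox2ot, whose gene spans Sox2, stood at 95.2 for SOX7 and 81.1 for FLI1, also with overlapping peaks. Of the imprinted genes on the list, Airn, which silences Igf2r in cis, stood at percentile 9.81 for SOX7 and 6.19 for FLI1, Nespas of the Gnas locus at 0.980 and 42.2, and Meg3 at 12.3 and 45.2, while Rian was listed for SOX7 alone at 49.7 and Mirg for FLI1 alone at 22.7. Igf2as (Igf2os), antisense to the imprinted growth factor gene Igf2, was listed for FLI1 alone, at 90.1. Mir17hg, host of the miR-17 cluster, stood at 0.513 for SOX7 and 51.8 for FLI1. Trp53cor1 (Gm16197), a p53 target beside Cdkn1a, stood at 35.8 and 70.5, and Dleu2, host of miR-15a and miR-16-1, at 20.6 and 51.2.

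At the Hoxa cluster, Hottip (Gm15053), known in mouse and human for keeping distal Hoxa genes active, stood at 60.9 for SOX7 and 28.4 for FLI1, and Halr1 (Gm15055) at 46.4 and 56.1. 5730457N03Rik, now Evx1os, was listed by all 3 at 70.9, 78.5 and 78.6 and had 2 regions of all 3 factors, chr6:52240184-52242280 and chr6:52256030-52260730. It counts as lincRNA through the SOX7 list, since the FLI1 and ERG lists call it antisense. It was singled out after its values were seen.

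LincRNA genes were unevenly spread over chromosomes. Chromosome 2 held 107 of the 780 (13.7%, 11.4 to 16.3%), against 8.62% of all listed genes, chromosome 11 held 79 (10.1%, 8.10 to 12.5%), against 7.24%, and chromosome 4 held 76 (9.74%, 7.75 to 12%), against 6.77%. Intervals below the share of all genes were found for chromosome 1 with 4.49% (3.15 to 6.19%), against 6.51%, chromosome 7 with 4.49% (3.15 to 6.19%), against 6.74%, chromosome 9 with 3.72% (2.50 to 5.30%), against 5.46%, and chromosome 19 with 1.54% (0.797 to 2.67%), against 2.72%. How many lincRNA genes the annotations hold on each chromosome was not known here, so the part of gene number in these shares was not tested.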

How the data were processed

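Reads were 60 bp, from libraries of 50 ng of DNA and 10 amplification cycles, per the labels' protocols. Per the file headers, each row gives a gene's biotype, read count in its peaks and read count per kb, and the deposited signal equals count over summed peak length to within 0.0372%. It is thus not scaled to depth. The submitters' processing notes name mm9, the build of the deposited peak coordinates. Not given in the sources used here were the aligner, peak caller, threshold, gene assignment rule, annotation releases and total depth. LincRNA genes had median counts of 99 SOX7, 182 FLI1 and 37 ERG reads.

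Percentiles are mid-ranks within a list. Peaks overlapped at 1 bp or more, and merged regions are chains of overlapping peaks. Intervals are 95% exact binomial (Clopper-Pearson), exact Poisson and order-statistic (medians). Python 3.11.15, NumPy 2.4.6, pandas 2.3.3, SciPy 1.17.1 and matplotlib 3.10.9 were used, and overlap steps were tested on simulated lists. RefSeq symbols matched 473 of 780 genes and supplied current names and nearest coding genes only. The members and lists were chosen with earlier results of these data known. Named are the 20 lincRNA genes with the best mean percentile among those of all 3 factors, the 5 densest and the 3 with most peaks per list, known lincRNAs, and coding genes sharing their peaks. Genes outside this rule, among them Gm16869, the miRNA hosts and Foxl2os, were picked with their values known.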

Additional observations from a re-analysis of the deposited data

How the results depend on the processing

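Of 73 recomputed values for 25 results, 51 stayed within the counting interval or within 1.5 times the count, and 22 moved. Some moves follow from the rule itself. Keeping the denser 50% of genes cuts gene counts, and overlap by centres is stricter than overlap by 1 bp. The 22 is thus not a measure of how firm the results are. Using the denser 50% of genes left 162 SOX7, 365 FLI1 and 59 ERG lincRNA genes, with 287, 122 and 32 listed by 1, 2 and 3 factors, and raised ERG peaks meeting SOX7 to 57.4%. Requiring the biotype lincRNA in every list left 463, 169 and 46 genes of 1, 2 and 3 factors. This rule cannot remove a gene of 1 list, so nothing is concluded from the move of the split towards 1 factor. Overlap within 500 bp of centres gave 26.7% for SOX7 with FLI1, 5.39% for SOX7 with ERG, 13.0% for FLI1 with SOX7, 2.37% for FLI1 with ERG and 24.8% for ERG with SOX7 and with FLI1. Peaks no wider than the median, an alternative chosen after seeing the data, gave 35.3, 5.79, 16.3, 2.42, 22.2 and 31.1% in the same order of pairs, with ERG and FLI1 last. Under both rules the lincRNA share fell below that of all peaks for FLI1 with ERG, against 2.61 and 2.98%, and for ERG with FLI1, against 27.6 and 34.6%, as it did for ERG with SOX7 in the narrow peaks. LincRNA genes with 1 peak, also chosen after, shared it with a coding gene in 27.1% of SOX7 and 29.3% of FLI1 peaks. No paired analysis was possible because each group has 1 library and no test was made. For the same reason no replicate could be left out. The ERG values rest on 101 peaks, and their intervals are the widest.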
